A study of Bos taurus and Ovis aries and Capra hircus with 9 samples.

Results

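The mitochondrial genome of mammals holds 7 genes for subunits of NADH dehydrogenase, the respiratory complex I, named ND1, ND2, ND3, ND4L, ND4, ND5, and ND6. Their RNA was followed in livers from cattle, sheep, and goats. The gene models of the mitochondrial sequence were taken in order of their start, rows shorter than 100 nt were dropped, and the ND genes were identified by their place in the order and their length. In cattle, 15 of 37 mitochondrial rows were long enough, and the 7 ND genes were found among 13 protein-coding genes. All 37 cattle rows had the start and end of a mitochondrial gene in RefSeq (assembly ARS-UCD2.0), and the 13 coding names were equal to those found by order. The goat rows gave the same 7 of 13. The sheep gene models held no row for ND4L and none for ATP8, so 6 ND genes of 11 coding genes were followed there and ND4L was not analysed in sheep. The whole tables held 27607 cattle genes, 26478 sheep genes, and 27271 goat genes.

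The study compared gene regulation and expression in the liver of 6 mammals, and the 9 libraries described here are those of its 3 ruminants. The groups were 3 Holstein cattle of 3 to 4 years, 3 Texel sheep of 2 to 3 years, and 3 Yunnan black goats of 2 to 3 years, all adult, healthy, and untreated, with liver taken after death and frozen. Each animal gave 1 library, named A, B, or C within its species, from RNA that was selected by its poly(A) tail. Species, breed, reference sequence, and annotation changed together, so their effects cannot be told apart.

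Complex I is the entry point of the respiratory chain, where electrons from NADH are passed to ubiquinone and protons are pumped across the inner mitochondrial membrane. The ND proteins form the core of its membrane arm, whereas the remaining subunits are encoded in the nucleus. ND2, ND4, and ND5 resemble antiporters and form proton channels, ND1 lies at the junction with the peripheral arm and takes part in the ubiquinone site, and ND3, ND4L, and ND6 are small subunits that lie between them. All but ND6 are transcribed with the heavy-strand polycistronic RNA, which is cut into mature RNAs mostly at the tRNAs, and ND6 is read from the opposite strand. The liver is rich in mitochondria, which serve its synthetic and oxidative metabolism.

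The ND genes lie in single exons on the MT sequence. In cattle (build ARS-UCD1.2), ND1 (ENSBTAG00000043558) spanned positions 3101 to 4056 and ND2 (ENSBTAG00000043571) positions 4266 to 5307. ND3 (ENSBTAG00000043568) followed at 9823 to 10168, behind the oxidase and ATP synthase genes. ND4L (ENSBTAG00000043559) at 10239 to 10535 and ND4 (ENSBTAG00000043577) at 10529 to 11906 shared 7 nt. ND5 (ENSBTAG00000043563) lay at 12109 to 13929 and ND6 (ENSBTAG00000043546) at 13913 to 14440 on the minus strand, so that these genes shared 17 nt on opposite strands. The strand setting of the counting was not given in the sources used here, so ND6 reads cannot be told apart from antisense reads at its position.

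The order was the same in sheep and goats. In sheep, ND1 lay at 2745 to 3699, ND2 at 3910 to 4951, ND3 at 9469 to 9814, ND4 at 10175 to 11552, ND5 at 11754 to 13574, and ND6 at 13558 to 14085. The 290 nt before sheep ND4, positions 9885 to 10174, held no gene model. In goats, ND1 lay at 2742 to 3697, ND2 at 3907 to 4948, ND3 at 9462 to 9807, ND4L at 9878 to 10174, ND4 at 10168 to 11545, ND5 at 11748 to 13568, and ND6 at 13552 to 14079. The study's methods name Ensembl genomes for the RNA-seq reads. They name the sheep build Oar_rambouillet_v1.0 and the goat build ARS1 where the ChIP-seq reads were mapped. The sample labels give ARS-UCD1.2, the cattle build, for the sheep and goat samples too, although gene identifiers and coordinates differed by species. The coordinates are given here as deposited with the counts. The annotated length differed by at most 1 nt between species for every ND gene listed in both.

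Library totals ran from 16507706 counts (goat C) to 61105490 counts (cattle C), so that 3 counts, taken here as the floor, had a CPM (counts per 1000000 counts of the library total) of 0.0491 to 0.182. The share of mitochondrial rows in all counts was 9.61% to 10.8% in the cattle libraries, against 1.99% to 2.99% in those of sheep and 1.09% to 3.70% in those of goats. Sheep C stood apart in CYB, the cytochrome b gene, with 33 counts against 101550 and 110305 in sheep A and B. For the ND genes, values without a library are given beside those means and folds that moved by over 1.5 times when it was left out. The same was done for the fold ranges of the other coding genes listed in all 3 species. The deposited files give gene identifiers without names and none of the tables used here pairs them, so liver marker genes and the nuclear complex I genes were not evaluated. In bulk tissue, fewer cells of a type and less RNA per cell cannot be told apart, which touches every level that follows.

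Summed over the ND genes, cattle libraries A, B, and C held 31614, 26711, and 26356 CPM, which was 2.82% of all counts on average. The 6 ND genes of sheep summed to 4318, 4437, and 2493 CPM. Goat libraries held 5757, 9280, and 22441 CPM. The cattle libraries were above all others, and the goat libraries were above all sheep libraries, with goat C standing well above goats A and B. The sums hid a large difference in make-up. ND4 alone supplied 28.3% ± 0.642 (SD, n = 3) of the ND counts in cattle (for levels and shares, ± is this SD throughout), 46.6% ± 7.06 in goats, and 96.0% ± 3.94 in sheep. ND2 supplied 15.3% ± 0.892 in cattle, 2.89% ± 3.74 in sheep, and 47.0% ± 8.56 among goats. The sheep value rested on sheep C, at 7.21% against 0.653% and 0.818%, and was 0.736% without it. Together, ND2 and ND4 supplied 43.6% ± 1.32, 98.9% ± 0.443, and 93.5% ± 1.53 of the ND counts in cattle, sheep, and goats.

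**Figure D1:**
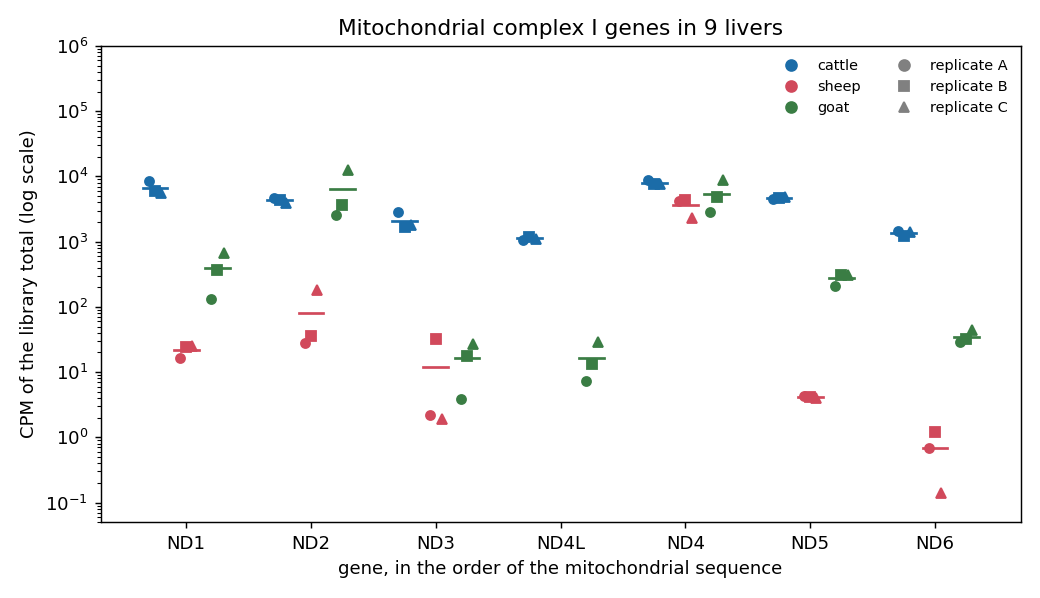
Level of each ND gene in each of the 9 liver libraries, in CPM of the library total on a log axis, with 1 point per animal and a bar at the mean of the 3 animals of a species. ND4 lay between 2282 and 8714 CPM in all 9 libraries, whereas ND6 ran from 0.141 CPM in sheep C to 1475 CPM in cattle A.

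ND1, at the junction of the membrane and peripheral arms, had 8387, 5921, and 5647 CPM in the cattle libraries. In sheep it had 16.7, 23.9, and 25.2 CPM, from 655 to 976 counts. In goats it had 131, 363, and 678 CPM. The species formed 3 separate groups, with cattle highest and sheep lowest, and the goat animals differed from each other by up to 5.16-fold. Mean CPM was 303-fold higher in cattle than in sheep and 17.0-fold higher in cattle than in goats, or 26.9-fold without goat C. On the TMM scale, which sets libraries to each other by their shared genes, the log2 fold change was 8.33 ± 0.66 (SE) for cattle over sheep (edgeR, adjusted p = 5.6e-06). It was 4.32 ± 0.55 for cattle over goats (adjusted p = 0.000116) and -4.01 ± 0.54 for sheep over goats (adjusted p = 0.000484).

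ND2, the first of the antiporter-like subunits, had 4615, 4352, and 3943 CPM in cattle. In sheep it had 28.2, 36.3, and 179.8 CPM. In goats it had 2556, 3709, and 12680.1 CPM. Sheep lay below every other library, with sheep C several-fold above sheep A and B, and the goat libraries lay on both sides of the cattle libraries. Cattle exceeded sheep by 5.91 ± 0.79 on the log2 scale (adjusted p = 0.00015), and by 7.04 without sheep C. Sheep lay below goats by a log2 fold change of -6.17 ± 0.80 (adjusted p = 0.000399), which became -7.30 without sheep C and -5.53 without goat C. Cattle and goats did not pass the test, at -0.26 ± 0.64 (adjusted p = 0.751), and this value was 0.37 without goat C (adjusted p = 0.643).

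ND4, another antiporter-like subunit, had 8714, 7609, and 7591 CPM in cattle. In sheep it had 4266, 4339, and 2282 CPM, from 64651 to 176977 counts. In goats it had 2820, 4839, and 8674 CPM. It was the ND gene with the narrowest range over the 9 libraries, and the goat libraries overlapped both other species. For cattle over sheep, the log2 fold change was 1.19 ± 0.46 with an adjusted p of 0.048, close to the threshold of 0.05. The call was lost in 10 of 17 alternative fits, with adjusted p between 0.0507 and 0.157, among them those without cattle A, B, or C, without sheep A or C, and without goat B. Without sheep C the log2 fold change was 0.89. The other comparisons did not pass the test, at 0.75 ± 0.45 for cattle over goats (adjusted p = 0.183) and -0.44 ± 0.45 for sheep over goats (adjusted p = 0.51).

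ND5, the longest ND gene and the antiporter-like subunit at the distal end of the arm, had 4540, 4696, and 4879 CPM in cattle. In sheep it had 4.38, 4.12, and 3.95 CPM, from 112 to 172 counts. In goats it had 209.9, 305, and 310.4 CPM. The 3 species did not overlap, and the animals of each species lay close together, with an SD of 169.6 CPM in cattle, 0.213 CPM in sheep, and 56.6 CPM in goats. Mean CPM was 1134-fold higher in cattle than in sheep, 17.1-fold higher in cattle than in goats, and 66.3-fold higher in goats than in sheep. The log2 fold changes were 10.23 ± 0.51 for cattle over sheep (edgeR, adjusted p = 4.0e-07), 4.19 ± 0.39 for cattle over goats (adjusted p = 1.7e-05), and -6.04 ± 0.43 for sheep over goats (adjusted p = 8.6e-06).

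ND3, a small subunit beside the junction, had 2809.6, 1704, and 1784 CPM in cattle. In sheep it had 2.24, 31.8, and 1.91 CPM, from 88, 1296, and 54 counts. In goats it had 3.93, 17.9, and 27.1 CPM, from 140, 410, and 447 counts. Cattle lay far above the other libraries. Sheep B stood apart from sheep A and C, above all goat libraries, while sheep A and C lay below them. For cattle over goats, the log2 fold change was 7.23 ± 1.28 (edgeR, adjusted p = 0.000868). For cattle over sheep it was 7.33 ± 1.29 (adjusted p = 0.000834) and became 10.23 without sheep B. Sheep and goats did not pass the test, at -0.10 ± 0.99 (adjusted p = 0.952), but without sheep B the log2 fold change was -2.999 (adjusted p = 0.0138), so that library B decided this call.

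ND4L, a small subunit whose gene overlaps the start of ND4, had 1072, 1188, and 1102 CPM in cattle and 7.24, 13.1, and 28.6 CPM in goats, from 258, 301, and 472 counts. Both species were separate, and cattle varied little between animals. In a fit of the cattle and goat libraries alone, with the 3 sheep libraries dropped, the log2 fold change of cattle over goats was 6.37 ± 0.50 (adjusted p = 0.000115). This fit was added after the sheep gene models were found to hold no ND4L.

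ND6, a membrane subunit and the only ND gene on the minus strand, had 1475, 1240.4, and 1411 CPM in cattle. In goats it had 29.4, 32.3, and 43.5 CPM, from 718 to 1049 counts. In sheep it had 0.687, 1.23, and 0.141 CPM, from 27, 50, and 4 counts. The 3 species did not overlap, and the sheep libraries were the lowest of all. The exact 95% Clopper-Pearson interval of sheep C, which covers counting error only, ran from 0.0385 to 0.361 CPM and did not reach the level of sheep A or B. Mean CPM was 2009-fold higher in cattle than in sheep, the largest fold of any ND gene, and 51.2-fold higher in goats than in sheep. Without sheep B these folds were 3322 and 84.7. The log2 fold changes were 10.94 ± 0.80 for cattle over sheep (adjusted p = 3.6e-06), 5.42 ± 0.63 for cattle over goats (adjusted p = 6.7e-05), and -5.52 ± 0.65 for sheep over goats (adjusted p = 0.0002). Without sheep B, the values against sheep were 11.86 for cattle and -6.44 for goats.

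For the comparison of cattle with sheep, all 6 ND genes tested rose in cattle, whereas 22.8% of the 7104 features tested were called higher in cattle. In the 10 of 17 alternative fits where ND4 lost its call, every other ND gene tested kept its call, which left 4 or 5 ND genes called. The count of 4 came from the fit that required CPM above 1 in every library, where ND6 was not tested. The median log2 fold change was 7.83 over the ND genes and 0.01 over all features, and the median size without sign over all features was 0.87. Ranked by size of change, ND6 was 11, ND5 14, ND1 37, ND3 65, ND2 118, and ND4 2648 among the 7104 features. Folds of mean CPM ran from 2.20 for ND4 to 2009 for ND6 among the ND genes, the latter 3322 without sheep B. Over the 5 other coding genes listed in all 3 species they ran from 2.77 to 52.6, or from 2.37 to 115 without sheep C. The contrast between these sets of genes was not tested.

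Cattle against goats gave a smaller set. Of 7 ND genes, 5 rose in cattle, namely ND1, ND3, ND4L, ND5, and ND6, whereas 24.2% of all features were called higher in cattle, and 25.5% in the fit that held ND4L. ND2 and ND4 did not pass the test. The median log2 fold change was 4.32 over the 7 ND genes and -0.10 over all features. Folds of mean CPM for cattle over goats ran from 0.681 for ND2 to 129 for ND3. They ran from 4.44 to 57.7 for the 5 other coding genes that were also listed in sheep. Without goat C these ranges were 1.37 to 192 and 5.29 to 102. ATP8, listed in cattle and goats only, had a fold of 1265, the largest of any coding gene. Its mean was 1830 CPM in cattle. In goats A, B, and C it had 0.449, 0.742, and 3.15 CPM, from 16, 17, and 52 counts.

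Between sheep and goats, 4 of 6 ND genes, ND1, ND2, ND5, and ND6, were lower in sheep, whereas 13.9% of all features were called lower in sheep. ND3 and ND4 did not pass the test. The median log2 fold change of sheep over goats was -4.76 over the ND genes and 0.01 over all features. Mean CPM in goats was between 1.36-fold (ND3) and 77.6-fold (ND2) that of sheep. The fold of ND3 was 7.86 without sheep B, and that of ND2 was 196 without sheep C and 38.5 without goat C. The 3 comparisons share libraries, so their values for a gene are not independent of each other.

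**Figure D2:**
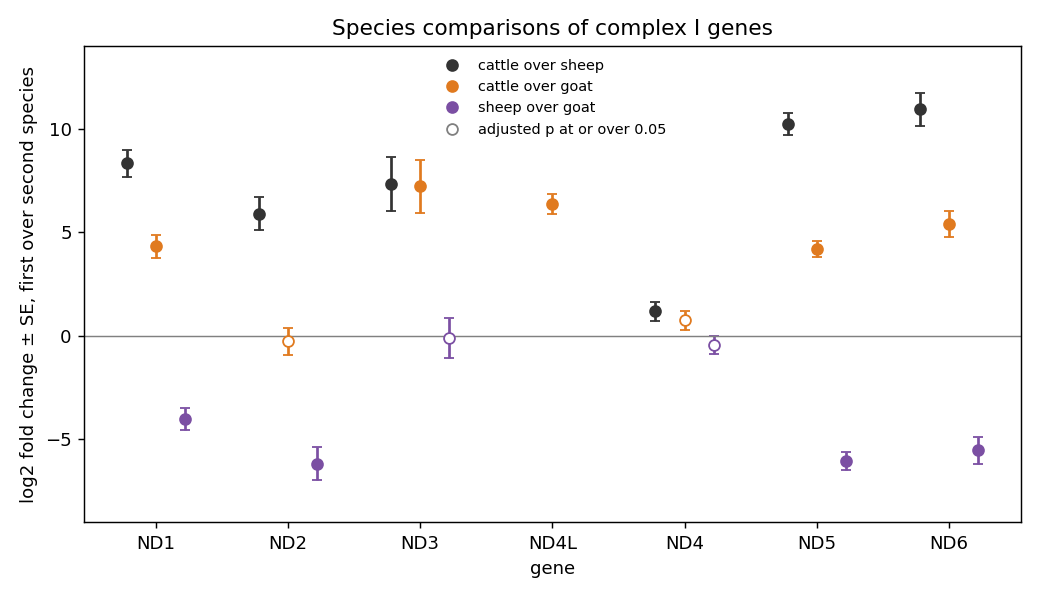
Log2 fold change of each ND gene in the 3 comparisons with its standard error, where filled points had an adjusted p under 0.05 and open points did not; ND4L was tested in cattle and goats only. ND4 lay nearest to 0 for cattle over sheep, at 1.19, and ND6 farthest, at 10.94.

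Shares within the mitochondrial coding genes do not depend on nuclear RNA or library size. Among the coding genes listed, the ND genes took 29.3%, 24.9%, and 27.6% in cattle, 15.1%, 19.8%, and 12.8% in sheep, and 65.9%, 56.8%, and 65.0% in goats. Goats lay above cattle and cattle above sheep, with no overlap. The same 6 of 11 genes gave 27.0% ± 2.33 in cattle and 62.5% ± 5.01 in goats. Leaving CYB out, given its low count in sheep C, the ND share was 16.6%, 22.5%, and 12.8% in sheep.

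Gene by gene, the share among the 11 coding genes was tested over the 3 species by an exact permutation test. ND4 took 7.95% ± 0.554 in cattle, 15.3% ± 3.81 in sheep, and 29.0% ± 3.62 in goats. Cattle were thus lowest in share, although highest in mean CPM, where they overlapped with goats. ND2 took 4.28% ± 0.112 in cattle, 0.395% ± 0.460 in sheep (0.130% without sheep C), and 29.6% ± 7.01 in goats. All 3 species were separate for both genes, and goats were highest.

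The remaining ND genes held their largest share in cattle. ND1 took 6.60% ± 1.23, 0.0981% ± 0.0364, and 1.90% ± 0.365 in cattle, sheep, and goats. ND5 took 4.71% ± 0.505, 0.0180% ± 0.00254, and 1.72% ± 0.763. ND6 took 1.38% ± 0.170, 0.00286% ± 0.00240 (0.00156% without sheep B), and 0.220% ± 0.107. Sheep were lowest for all of these genes, and no species overlapped another. ND3 took 2.08% ± 0.538 in cattle, 0.0531% ± 0.0766 in sheep, and 0.0777% ± 0.0323 in goats, where sheep and goats overlapped. That overlap came from sheep B alone, at 0.142%, since sheep A and C lay below every goat, with a mean of 0.00881%. For ND1, ND2, ND4, ND5, and ND6, p was 0.00357, the smallest that this exact permutation test can give (adjusted p = 0.00655 over 11 genes). For ND3, the exact permutation p was 0.0214 (adjusted p = 0.0262). All 6 ND genes thus passed, and so did 81.8% of the 11 coding genes as a whole. Shares sum to 100%, so a larger share of one gene lowers the others.

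**Figure D3:**
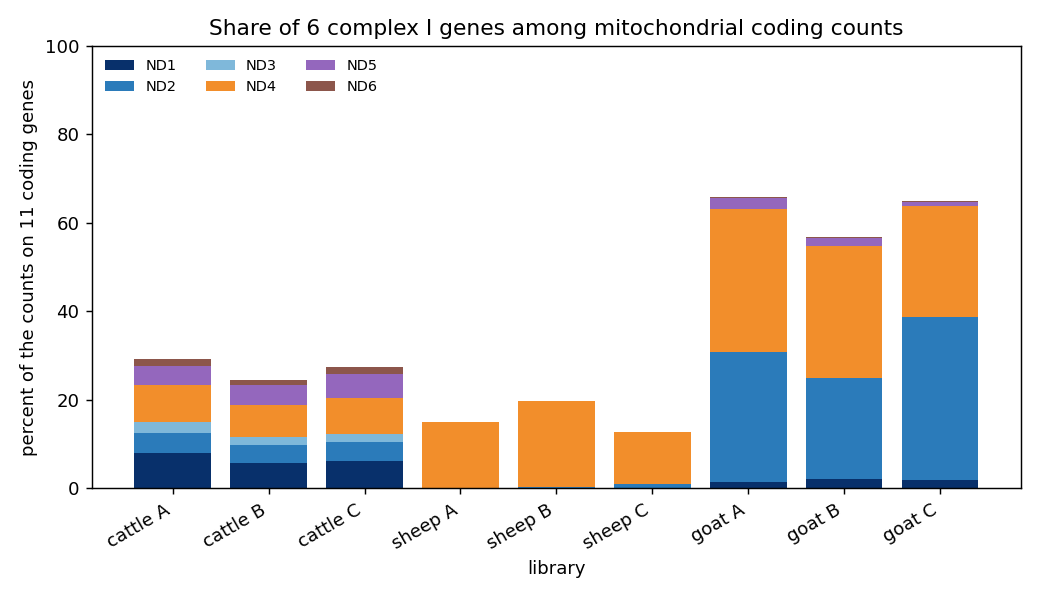
Share of each ND gene among the 11 mitochondrial coding genes listed in all 3 species, in percent on a linear axis, as stacked segments of 1 bar per library. ND2 and ND4 were highest in goats, at 29.6% and 29.0% on average, whereas ND1, ND3, ND5, and ND6 were highest in cattle.

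To order the ND genes within a species, CPM was divided by annotated length (CPM per kb). No correction was made for reads that span neighbouring rows or for short genes, such as ND4L (297 nt) and ND3 (346 nt). In cattle, ND1 (6958 ± 1579 CPM per kb), ND3 (6068 ± 1781), and ND4 (5785 ± 467) formed the upper set and overlapped each other. ND2 (4130 ± 325) and ND4L (3773 ± 202) followed and also overlapped. ND6 (2605 ± 230.04) and ND5 (2584 ± 93.1) were lowest and overlapped. The 7 genes of cattle thus lay within a narrow band, from 2349 to 8773 CPM per kb over all libraries.

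The order of goats was another. ND2 (6061 ± 5319 CPM per kb) and ND4 (3951 ± 2158) were on top and overlapped, and within each goat library ND2 ranked 1 and ND4 ranked 2 of the 11 coding genes. ND1 (409 ± 287) and ND5 (151 ± 31.1) followed and overlapped through goat A, where ND1 had 137 CPM per kb. Within each goat library, ND1 lay above ND5. ND6 (66.4 ± 14.1), ND4L (55.0 ± 37.1), and ND3 (47.1 ± 33.7) were lowest and overlapped each other. Without goat C the means were 3006 for ND2, 259 for ND1, and 34.3 for ND4L, and the other means moved by less than 1.5 times. No goat library of ND4 came near those of ND1, the next gene down.

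In sheep, ND4 (2634 ± 847 CPM per kb) stood alone at the top, ranking 3 of 11 coding genes in every library. ND2 (78.2 ± 81.8), ND3 (34.6 ± 49.6), and ND1 (23.0 ± 4.82) followed, with ND3 overlapping both others. The place of ND3 above ND1 rested on sheep B, where ND3 had 91.8 CPM per kb, and in sheep A and C it had 6.47 and 5.51 and lay below ND1. ND2 had a mean of 31.0 without sheep C. ND5 (2.28 ± 0.117) and ND6 (1.30 ± 1.03) were lowest and overlapped, the latter at 0.784 without sheep B. ND4 lay above the next ND gene by 9.60-fold or more in every sheep library, and it was 1148-fold ± 337 as abundant per length as ND5, which lies close behind it on the same strand. The same ratio was 2.24 ± 0.256 in cattle and 25.2 ± 10.3 in goats.

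**Figure D4:**
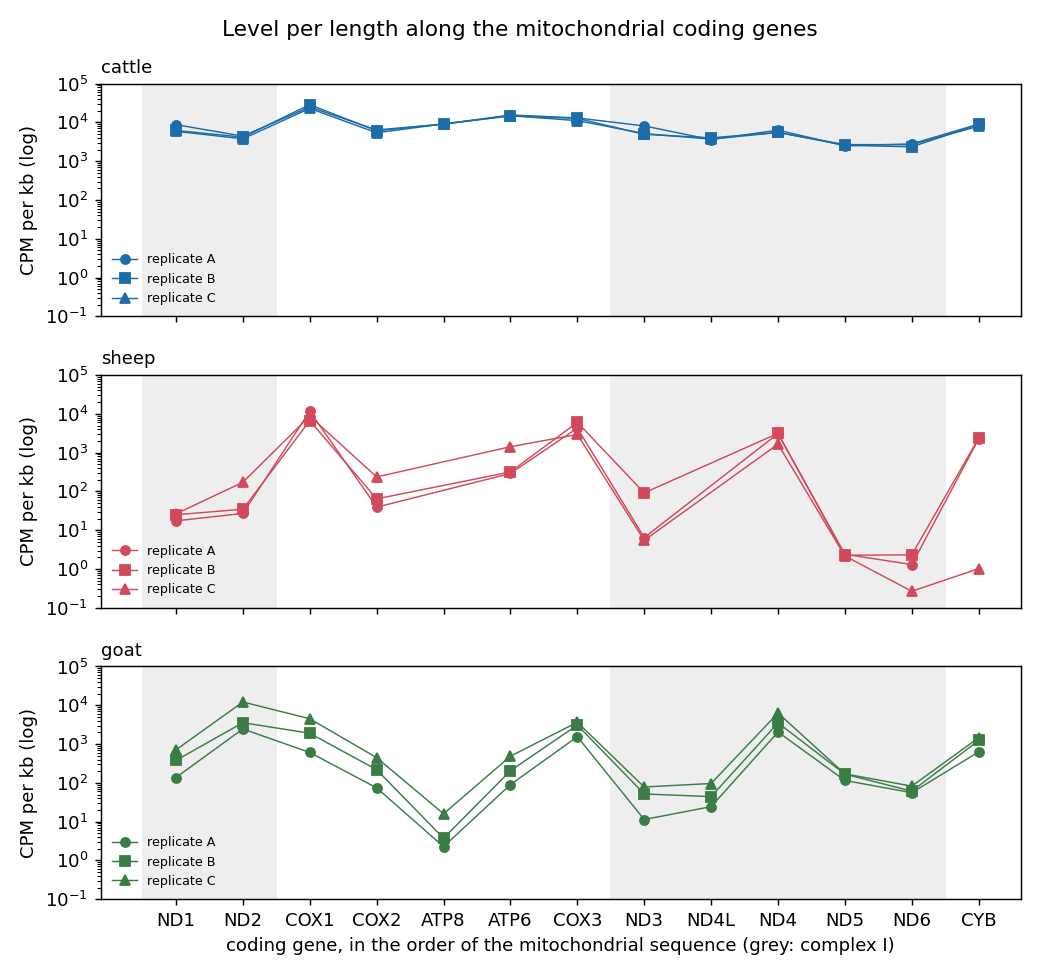
CPM per kb along the mitochondrial gene order in each library, on a log axis, with lines joining the genes of one library and grey bands over the complex I genes; the sheep lines pass over ATP8 and ND4L, which have no sheep value. The cattle lines run level over the ND genes, between 2349 and 8773 CPM per kb, whereas the sheep lines fall from ND4 to ND5.

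Neighbouring genes gave further contrasts. ND4L and ND4 overlap and are read on one strand, and ND4 exceeded ND4L per length by 1.75, 1.38, and 1.49 in cattle and by 84.0, 79.4, and 65.4 in goats. ND2 over ND1 was 0.607 ± 0.0897 in cattle, 1.55, 1.39, and 6.54 in sheep, and 17.8, 9.37, and 17.2 in goats. Each pair lay close in cattle and far apart in goats, and sheep C was set apart by ND2. ND5 over ND6, which overlap on opposite strands, was 0.997 ± 0.103 in cattle, 2.29 ± 0.388 in goats, and 1.85, 0.974, and 8.12 in sheep, where ND6 had few counts. Wide gaps were not confined to ND genes. The overlapping genes ATP8 and ATP6 had means of 9103 and 15055 CPM per kb in cattle, against 7.31 and 261 in goats. In goats A, B, and C, ATP8 had 2.27, 3.75, and 15.9 CPM per kb and ATP6 had 90.1, 205, and 487. The 16S ribosomal RNA had 2, 5, and 2 counts in sheep, with means of 235 CPM in cattle and 304 CPM in goats. The goat mean of 16S came from 139, 250, and 522 CPM in goats A, B, and C. Why these rows were low was not tested.

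The animals of a species kept these proportions to different degrees. For each pair of libraries, the log2 ratio of CPM was taken for the 6 ND genes and its SD over genes was computed, which is 0 when all genes change alike. This SD was 0.115 to 0.293 among cattle, 0.588 to 0.951 among goats, and 1.44 to 2.19 among sheep. Between species it was 2.52 to 3.14 for cattle with goats, 3.38 to 4.003 for cattle with sheep, and 2.01 to 3.65 for sheep with goats. Cattle animals had the lowest SDs, although ND3 still differed by 1.65-fold and ND1 by 1.49-fold between them. Sheep animals differed from each other mainly in ND2, ND3, and ND6, by 6.37-fold, 16.7-fold, and 8.68-fold between the lowest and the highest animal.

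The likeness of genes over the 9 libraries was measured as the root mean square difference of their centred log2 profiles, where 0 means the same profile. ND5 and ND6 were most alike to each other, at 0.78. ND1 was closest to ND5 (1.07), and both ND2 (1.97) and ND3 (1.68) were closest to ND1. Without sheep C, the nearest genes of ND1, ND2, and ND3 were COX2, ND5, and ATP6 instead. ND4 had its nearest gene outside complex I, at 0.69 from COX3, a subunit of cytochrome c oxidase, and was farthest from ND6 (4.07). The 9 points share 3 species, so these values describe the libraries and carry no test. COX1, the catalytic subunit of cytochrome c oxidase, exceeded ND4 per length by 4.45 ± 0.662 in cattle and 3.73 ± 1.58 in sheep, and was at 0.517 ± 0.210 of ND4 in goats.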

How the data were processed

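The 9 liver libraries, 3 per species, were poly(A)-selected and random-primed. The authors trimmed reads with Trimmomatic 0.39, mapped them with STAR 2.7.6 to Ensembl genomes with at most 3 mismatches, and deposited raw featureCounts counts per gene with exon positions and lengths. Handling of multi-mapping reads and strand was not given in the sources used here. The methods name Oar_rambouillet_v1.0 (sheep) and ARS1 (goat) for ChIP-seq reads.

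CPM was taken of the library total. For tests, nuclear genes were paired among species by the order of their internal exon lengths (7989 genes), and the mitochondrial genes were added by order. TMM factors and the quasi-likelihood test of edgeR 4.0.16 (R 4.3.3) were applied to all 9 libraries with species as groups, keeping 7104 features with CPM above 1 in at least 2 libraries. P-values were adjusted by Benjamini-Hochberg over all features at a threshold of 0.05. SE is the log2 fold change divided by the root of F. DESeq2 1.42.0 was an alternative. Scripts were tested on simulated data. Shares were tested by an exact permutation test of F over 280 splits. The design had 13 coding genes, and 11 were used because sheep listed no others. Profiles used log2(CPM + 0.1).

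Replicate pairs differed by 90.1 to 478 chi-square units per degree of freedom, far beyond sampling noise, so each library counted as 1 replicate. Groups and letters came from the titles. All 7 ND genes were named, with the most alike coding gene for the 6 listed in all species. Leaving each library out of the means and of the likeness measure was added after the data were seen. The members and gene lists were chosen with earlier results of these data known. The lists of nuclear complex I genes, mitochondrial expression genes, and cell type markers could not be evaluated without gene names.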

Additional observations from a re-analysis of the deposited data

Results flagged for a closer look

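Signal appeared in a mitochondrial row that no comparison here used, the last row of 66 nt, of tRNA length and on the minus strand. Its mean was 331 ± 36.2 CPM in cattle, 899.8 ± 391 CPM in sheep, and 1857 ± 315 CPM in goats (SD, n = 3), above the limit of 3 counts in every library. In sheep this row was above the mean of ND1, ND2, ND3, ND5, and ND6. Groups of 3 were too small for a check of single outlying samples.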

How the results depend on the processing

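Of 324 refitted log2 fold changes, 307 kept their direction and side of the threshold, 10 lost the call (all ND4, cattle over sheep), 1 gained it (ND3, sheep over goats, without sheep B), and 6 changed sign. Correlations of same-letter deviations from the species means ran from -0.198 to 0.294. Different letters were not correlated for comparison, so whether the letters pair the animals was not tested. With the letter as a replicate block, ND2 for cattle over goats was 0.0464 in place of -0.26, ND4 for cattle over sheep was 1.24 (adjusted p = 0.0512), and the share of ND3 lost its call (adjusted p = 0.0679). Over the fits that left out 1 library each, ND2 for cattle over goats ran from -0.57 to 0.37, the latter without goat C. ND3 for sheep over goats ran from -2.999 to 0.51 over the fits that left out 1 library each, and was 0.51 without sheep A, 0.42 without sheep C, 0.22 without goat B, and 0.22 without goat C.

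The ND share of coding counts in cattle was 30.2% without CYB. Scaling to library totals without TMM moved the median log2 fold change of all features to -0.25, -0.53, and -0.16 for cattle over sheep, cattle over goats, and sheep over goats. Higher and lower calls were then 908 and 1883, 936 and 2466, and 461 and 879, against 1623 and 1804, 1721 and 1979, and 796 and 984 with TMM. Between sheep and goats, 1780 features were called, and 1167 without goat B. Relative to counts on nuclear genes, 5 of 20 mean CPM values, all in cattle, moved by more than their SD. The precision of ND6 in sheep was limited by its low counts, 4 to 50. Goats B and C held 740 and 718 ND6 counts at smaller library totals. These totals were 22921767 and 16507706 counts, against 28332266 to 40784417 in sheep. What set the low ND6 counts of sheep was not tested.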
